A study of Apostichopus japonicus with 12 samples.

Results

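The intestine of unheated sea cucumbers was described from 3 of the 12 libraries of a heat-stress series on Apostichopus japonicus, a deposit-feeding echinoderm. These 3 libraries were chosen by their label as controls: the animals weighed around 100 g and stayed at 18 °C with no warming, and their labels name no agent and no allele. RNA was extracted from each animal separately, so the libraries are 3 individuals, called animals 1, 2 and 3 here after the numbers in their labels. The tissue was not separated into layers or sorted cells, as far as the labels say, so muscle, nerve, connective tissue, coelomic cells and gut lining were measured together, and fewer cells of a type cannot be told apart from less RNA per cell. The sex and feeding state of the animals are not in the sources used here. The heated groups were not compared. With a single group there was no test to run, and every value below is a description of 3 animals, given per animal or as mean ± SD (n = 3).

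The intestine of a sea cucumber is a long thin tube in which sediment is digested and nutrients are absorbed, and it also exchanges material with the coelomic fluid, in which immune cells called coelomocytes circulate. In sea urchins, which are echinoderms too, the gut is known as a site that makes major yolk protein, an iron-binding protein related to the transferrins that is carried through the coelomic fluid to the gonad. Ribosomal proteins, the structural proteins of the translation machinery, are encoded by short and highly transcribed genes in most animal tissues.

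Values are given on 2 scales. Fragments per kilobase of coding length, scaled by depth (FPKM), are the authors' values and are per length, so they compare levels between genes. The share of reads on genes is the percentage of a library's own reads that fell on a gene model, so it shows where the sequencing went and favours long genes. The totals were 3109296, 2665272 and 3713358 reads on genes in animals 1, 2 and 3. The deposited FPKM had been scaled between libraries: the reads were divided by 2573704, 3619254 and 7614754 in animals 1 to 3, which is 0.828, 1.36 and 2.05 times their own totals. FPKM therefore summed to 1535290, 1009670 and 562397, and a gene with the same share of reads in all 3 animals has a higher FPKM in animal 1 than in animal 3. Many genes order the animals differently on the 2 scales, so an order between animals given below holds only for the scale it is given on.

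Of 30221 gene models, 22657 had at least 1 read in a control animal, 13381 had a read in all 3 animals and 7564 had none. Animals 1, 2 and 3 had 16305, 18056 and 19818 models with a read, and 7981, 9665 and 12830 with at least 10 reads. When every library was thinned to 2500000 reads, 15935, 17943 and 19194 models were expected to keep a read, so the order of the animals was the same at equal depth. The limit that a count of 0 allows, 3 reads, was between 8.08e-05% and 0.000113% of a library.

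Few gene models took most of the reads. The 10 most read models of each library held 42.2%, 25.7% and 26.2% of the reads on genes in animals 1, 2 and 3, a mean of 31.4% ± 9.42 (n = 3), and the 100 most read held 77.2%, 65.3% and 53.5%, a mean of 65.4% ± 11.8. The first 50% of the reads fell on 20 models in animal 1, on 46 in animal 2 and on 79 in animal 3, and 90% fell on 687, 1995 and 3264 models. The 95% Wilson intervals of these shares, which cover counting error only, were narrow beside the differences between animals (42.2% to 42.3% for the 10 most read models of animal 1, and 26.1% to 26.2% in animal 3). Animal 1 stood apart at the top of the list, while animals 2 and 3 had nearly the same share on their first 10 models and separated further down. The lists overlapped: 5 models were among the 10 most read of all 3 animals, and 71 were among the 100 most read of all 3, out of 132 models in any of those lists of 100.

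**Figure D1:**
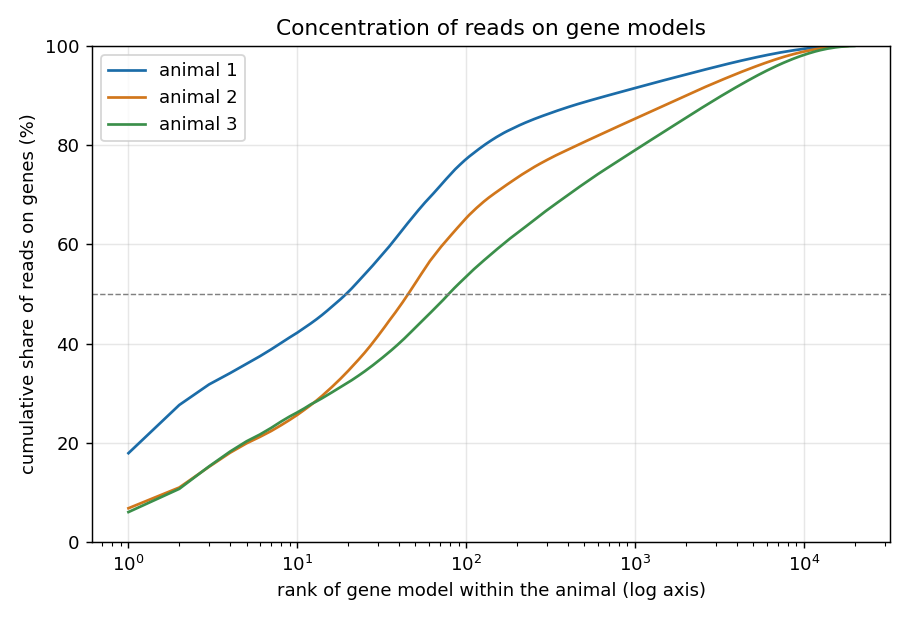
Cumulative share of reads on genes (%) against the rank of the gene model within each animal on a log axis, one line per animal, with a dashed line at 50%. The line of animal 1 crosses 50% at 20 models, that of animal 2 at 46 and that of animal 3 at 79, and the lines of animals 2 and 3 run together over the first 10 models.

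Ribosomal, yolk and unnamed models filled the top of the list. Of the 30 models with the highest mean FPKM, 18 were cytosolic ribosomal proteins, 9 were hypothetical proteins with no name and 3 were yolk or iron-binding proteins. Of the first 100, 67 were ribosomal, 22 hypothetical and 5 yolk or iron-binding. Ranked by reads instead, 61 of the first 100 were ribosomal, 18 hypothetical, 6 yolk or iron-binding and 4 lectins, complement or scavenger receptors. The models at the top were short: the median coding length was 495 bases for the first 100 by FPKM, 584 for the first 100 by reads and 1005 over all models with a read. Of the 30 highest models, 29 had their highest FPKM in animal 1, and the median of the highest over the lowest FPKM (each + 1) was 4.76. On the scale of read shares the order was different, with 13 of the 30 highest in animal 1 and 26 of the 30 lowest in animal 3.

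**Figure D2:**
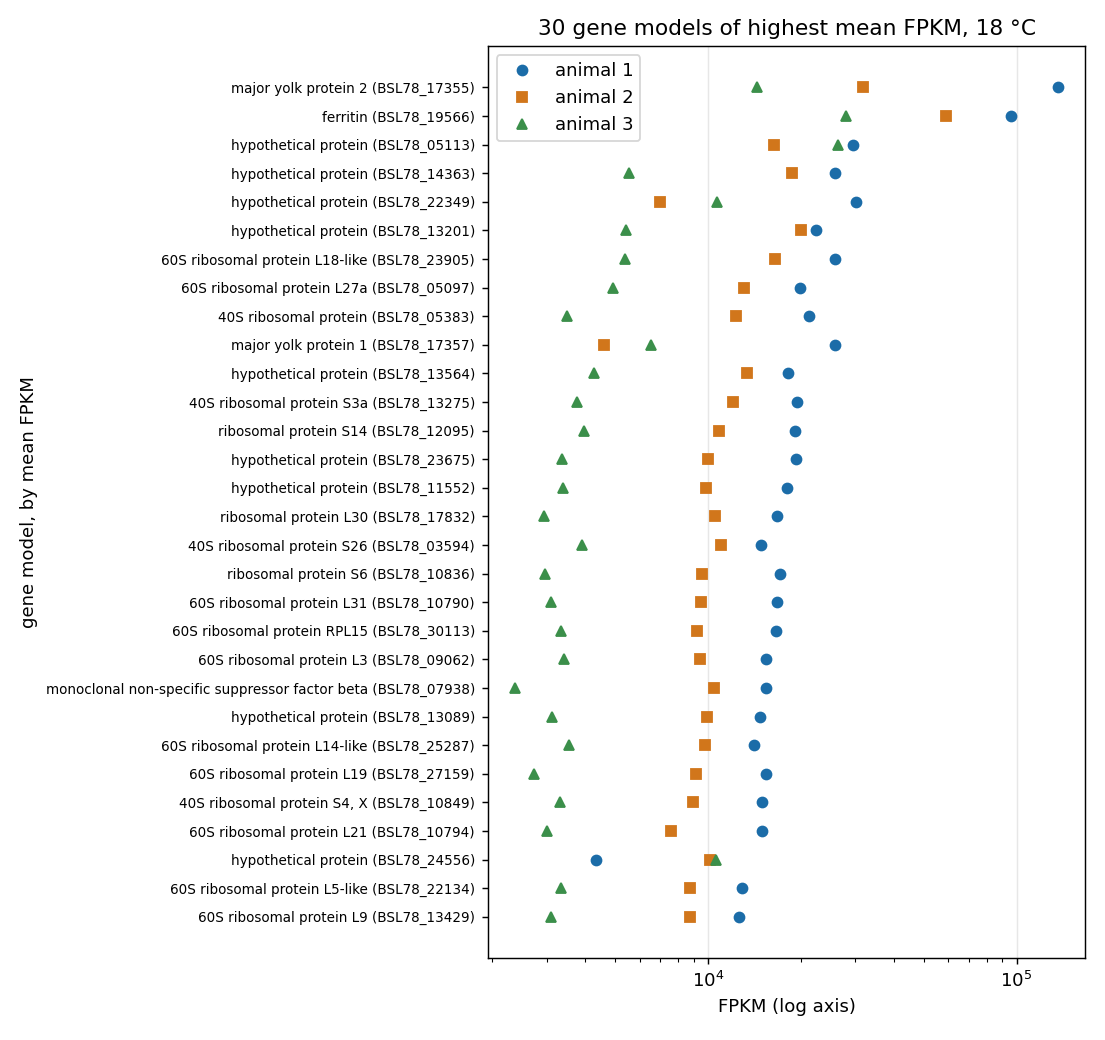
FPKM (log axis) of the 30 gene models with the highest mean FPKM, one row per model from the highest down, with one marker per animal. Animal 1 lies furthest right in 29 of the 30 rows, the exception being the hypothetical model BSL78_24556, and the ribosomal models form a column in which the 3 animals keep the same order.

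The yolk and iron-binding class held 34.0%, 15.6% and 17.9% of the reads in animals 1, 2 and 3, a mean of 22.5% ± 10.04 (n = 3) over 21 models, 19 of which had a read. Its 3 most read models made up 88.1% of the class. As a share of summed FPKM, which takes gene length out, the class held 17.6%, 10.1% and 10.6%, a mean of 12.8%, and with the most read model left out its mean share of the reads was 14.3%. Major yolk protein 2 (BSL78_17355) stood first, with 136645, 31799 and 14380 FPKM in animals 1, 2 and 3, and its share of the reads was 18.0%, 6.85% and 4.68%. Major yolk protein 1 (BSL78_17357) had 25764, 4593 and 6515 FPKM and took 9.71%, 2.84% and 6.08% of the reads, the largest single share of animal 3. The second model named major yolk protein 2 (BSL78_17356) had 8719, 1618 and 3203 FPKM. All 3 models were thus highest in animal 1, but animals 2 and 3 took different orders: model BSL78_17355 was higher in animal 2 and the other 2 models were higher in animal 3.

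These 3 yolk models are neighbours on the minus strand of scaffold MRZV01000686.1, at 235902 to 240673 (BSL78_17355), 240734 to 247209 (BSL78_17356) and 274789 to 288290 (BSL78_17357). The genome build was not given in the sources used here, so positions are those of the deposited table. A gap of only 60 bases separates the first and the second model, which share a name, and whether they are parts of one gene was not tested. A second neighbouring pair of major yolk protein 1 models was read at a lower level, with 976, 183 and 425 FPKM for BSL78_16917 and 149, 10.4 and 28.01 FPKM for BSL78_16918. The 5 major yolk protein models together took 29.5%, 10.2% and 12.4% of the reads of animals 1, 2 and 3.

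Ferritin (BSL78_19566, scaffold MRZV01000840.1, 206052 to 208599, plus strand), the cage-forming protein that stores iron inside cells, was second by mean FPKM. Its level was 95716, 58961 and 27985 FPKM in animals 1, 2 and 3, and its share was 4.14%, 4.18% and 3.00% of the reads. The share therefore varied less between animals than that of the yolk proteins, with a mean of 3.77% ± 0.671 (n = 3). The other model named as a ferritin, BSL78_20784, had no read in any of the 3 animals. Melanotransferrin, a membrane-bound member of the transferrin family, had 7 models, and the most read of them (BSL78_14264) had 1902, 3455 and 5034 FPKM in animals 1, 2 and 3. In FPKM that order is the reverse of the order of ferritin and of BSL78_17355, and by read share melanotransferrin kept it, at 0.313%, 0.933% and 2.05%. Hephaestin-like and ceruloplasmin models, named after copper-dependent iron oxidases, lie side by side on the plus strand of scaffold MRZV01000086.1 (BSL78_03743 to BSL78_03746). The highest of them, BSL78_03746, had 79.1, 485 and 414 FPKM, and ceruloplasmin (BSL78_03744) had 8.63, 25.4 and 83.8 FPKM. All 4 were lowest in animal 1.

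Vitellogenin 2, the yolk precursor of the large lipid transfer family, was read far below major yolk protein. Its higher model (BSL78_18495) had 39.2, 556 and 159 FPKM in animals 1, 2 and 3, and the other (BSL78_24130) had 10.1, 33.5 and 20.2 FPKM. Both were highest in animal 2 in FPKM and in read share. Major yolk proteins together had their lowest read share in animal 2, but their lowest FPKM in animal 3, with sums of 172252, 38203 and 24551 FPKM.

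Cytosolic ribosomal proteins took 31.9%, 34.3% and 18.3% of the reads in animals 1, 2 and 3, a mean of 28.2% ± 8.63 (n = 3). As a share of summed FPKM the class held 45.2%, 45.0% and 28.2%, so animals 1 and 2 were alike and animal 3 lower on both scales. All 98 models of the class had reads, and 73 of them had a mean of at least 1000 FPKM. The reads were spread over the class, with 5.68% of them on its most read model and 12.6% on its first 3. The median level of a ribosomal model was 5808, 4100 and 1416 FPKM in animals 1, 2 and 3. In FPKM, 80 of the 98 models followed that order, while in read shares 83 of the 98 were lowest in animal 3 and 41 and 55 of the 97 models with at least 10 FPKM were highest in animals 1 and 2. The models named for the large subunit took 18.5%, 19.5% and 10.5% of the reads and those named for the small subunit 11.4%, 12.3% and 6.40%, so both subunits shared the pattern.

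Single ribosomal models mostly repeated the order of the class. The most read, 60S ribosomal protein L3 (BSL78_09062), took 1.88%, 1.89% and 1.03% of the reads in animals 1, 2 and 3, with 15375, 9432 and 3406 FPKM. The highest by FPKM, 60S ribosomal protein L18-like (BSL78_23905), had 25841, 16495 and 5370 FPKM. A model named monoclonal non-specific suppressor factor beta (BSL78_07938), a name used for the ubiquitin-like precursor of a small-subunit protein, had 15377, 10430 and 2364 FPKM. Mitochondrial ribosomal proteins were far lower, with 0.0879%, 0.167% and 0.105% of the reads over 96 models.

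Several ribosomal proteins are represented by more than 1 model, and there the models of a name differed between animals in ways their sum did not. Ribosomal protein P2 had 5279, 1.10 and 1501 FPKM on BSL78_11277 and 8548, 9983 and 1538 FPKM on BSL78_24813 in animals 1, 2 and 3. The sum was 13827, 9984 and 3040 FPKM, which is the order of the class. Ribosomal protein S25 had 2067, 0.980 and 304 FPKM on BSL78_14371 and 4381, 4540 and 137 FPKM on BSL78_23825. In both cases animal 2 had almost no reads on the first model and nearly all its reads for that name on the second. How the authors' counting divided reads between near-identical models is not given in the sources used here, so the values of single models of such names are uncertain.

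Models described as hypothetical or unnamed took 17.3%, 23.1% and 26.0% of the reads in animals 1, 2 and 3, a mean of 22.1% ± 4.46 (n = 3). Of the reads outside the yolk and ribosomal classes they took 50.6%, 46.2% and 40.8%, which is the reverse order. They are 13148 of the models, of which 8579 had a read. The most read was BSL78_19133 (scaffold MRZV01000808.1, 224506 to 242709, plus strand), a long model of 11460 coding bases with the domain label DUF1081, which was number 4 of all models by reads. It took 2.29%, 4.17% and 4.52% of the reads, yet by length it had only 2414, 2680 and 1925 FPKM and ranked number 86. Among the 15 models that held at least 1% of the reads of any animal, its FPKM was the steadiest, with an SD of 0.24 in log2(FPKM + 1). The highest hypothetical model by FPKM was the short BSL78_05113 (246 coding bases), with 29424, 16407 and 26407 FPKM and 0.599%, 0.548% and 1.33% of the reads. BSL78_24556 differed from the rest of the top 30, with 4329, 10146 and 10598 FPKM, so that animal 1 was the lowest. BSL78_23675 followed the ribosomal order, with 19307, 10019 and 3359 FPKM. Hypothetical models under 300 coding bases took 2.89%, 2.82% and 3.20% of all reads on genes, a near-equal share in the 3 animals on that denominator.

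Named functions outside the yolk and ribosomal classes took small shares each. Of the 38 classes with a named function, 31 had a mean share under 1% of the reads. Of the 38 classes, 32 had their lowest share in animal 1 and 27 their highest in animal 3. Reads outside those 2 classes were 34.1%, 50.1% and 63.8% of the library in animals 1, 2 and 3. As a share of these remaining reads, a denominator chosen after the data were seen, 4, 18 and 14 of the 36 other classes were highest in animals 1, 2 and 3, and 8 of the 36 differed more than 2-fold between animals. Many classes order the animals differently on the 2 denominators. Class shares below are of all reads on genes unless the other denominator is named, and an order between animals holds for the denominator given.

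**Figure D3:**
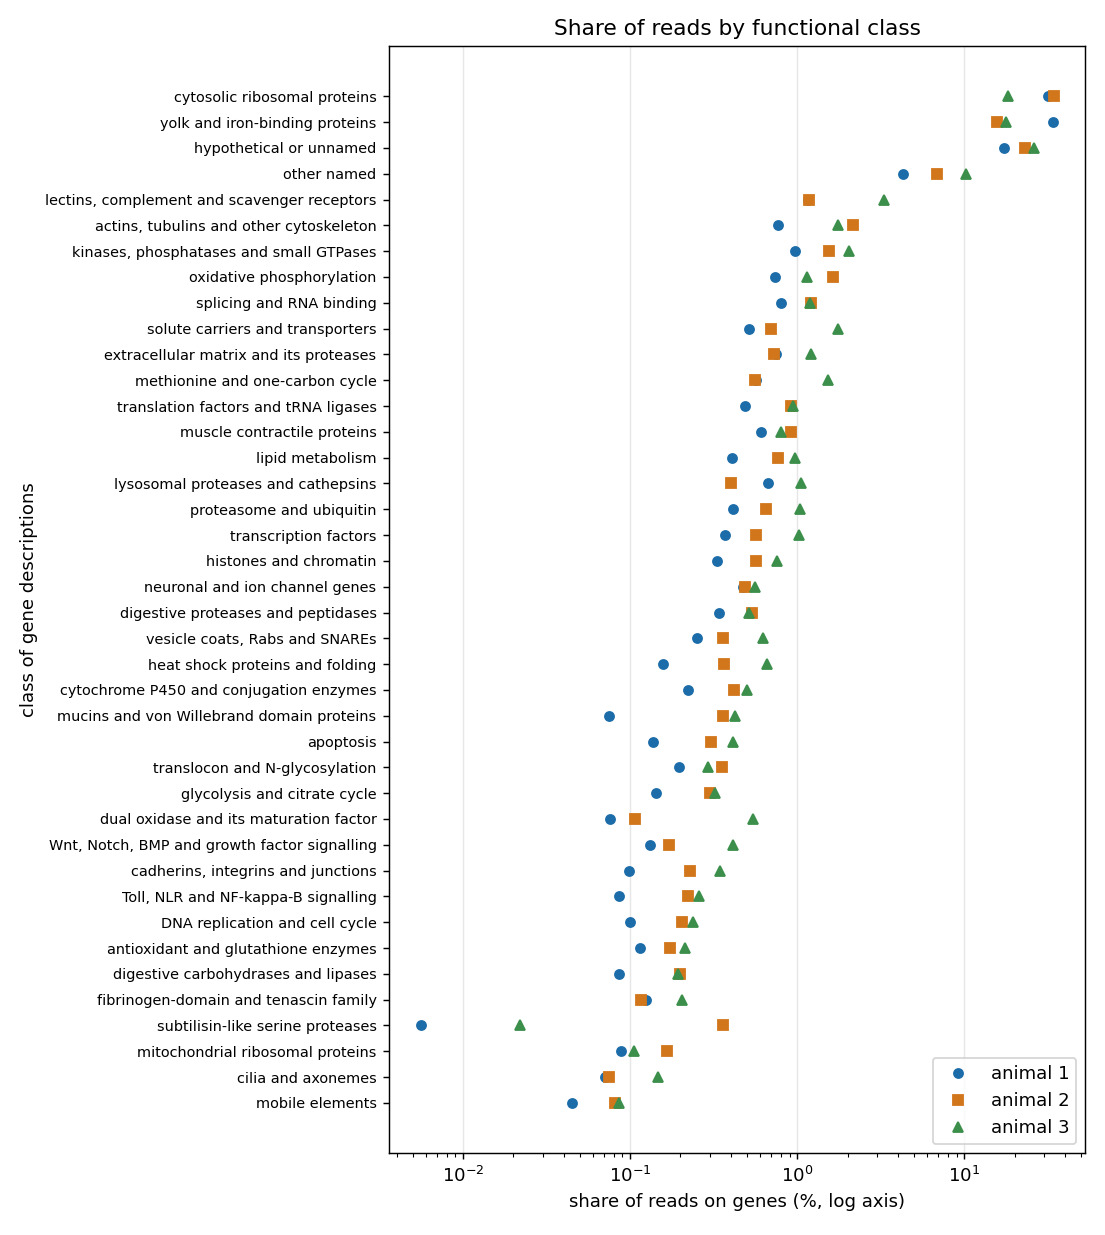
Share of reads on genes (%, log axis) for each class of gene descriptions, one row per class ordered by mean share, with one marker per animal. Ribosomal, yolk and hypothetical models lie above 10%, most named classes lie below 1%, animal 1 is furthest left in most rows, and subtilisin-like serine proteases and dual oxidase show the widest gaps.

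Immune recognition had the highest mean share of reads among the remaining named classes, and the highest share in animals 1 and 3. In animal 2 the cytoskeleton, kinase, oxidative phosphorylation and splicing classes took more. Its first place by mean rested on animal 3: without that animal its mean was 1.16%, against 1.46% for the cytoskeleton class. Lectins, complement and scavenger receptors took 1.16%, 1.17% and 3.31% of the reads in animals 1, 2 and 3, or 3.40%, 2.33% and 5.18% of the reads outside the yolk and ribosomal classes. Animal 3 was highest on both. The Lectin_C domain label, 78 models counted whatever their class, differed in its sum: it took 0.181%, 0.0887% and 0.124% of the reads, highest in animal 1. By model it did not: of its 48 models with a read, 12, 11 and 25 had their highest share in animals 1, 2 and 3. Complement component C3, the central opsonin of the complement cascade, was read on 13 of 15 models, and together they took 0.232%, 0.368% and 1.15% of the reads. Its highest model, complement component 3-2 (BSL78_25602), had 762, 657 and 1322 FPKM and 0.0918%, 0.130% and 0.395% of the reads. Complement factor H (BSL78_01507), named after a regulator that restrains C3 on host cells, had 154, 1022 and 1398 FPKM, so animal 1 stood low. The model P-selectin-like BSL78_29450, named after an adhesion lectin, had 1247, 782 and 1248 FPKM, so animals 1 and 3 were alike on that scale. Alpha-2-macroglobulin models, which trap proteases and share ancestry with C3, took 0.219%, 0.0128% and 0.564% of the reads over 5 models, lowest in animal 2.

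Dual oxidase, which releases hydrogen peroxide at epithelial surfaces, was read with the maturation factor it needs to leave the endoplasmic reticulum. Dual oxidase 1 (BSL78_18954) had 97.5, 77.3 and 341 FPKM in animals 1, 2 and 3, and its maturation factor (BSL78_18953) had 401, 368 and 873 FPKM. The models are neighbours on opposite strands of scaffold MRZV01000793.1, at 111280 to 141594 and 47650 to 56723. The class took 0.0761%, 0.106% and 0.543% of the reads, and 0.223%, 0.212% and 0.850% of the reads outside the yolk and ribosomal classes, so animal 3 stood apart on both. Toll, NLR and NF-kappa-B signalling models took 0.0857%, 0.222% and 0.260% of the reads, with toll-like receptor 3 (BSL78_17685) at 39.7, 56.9 and 31.7 FPKM.

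Digestive enzymes were a small part of the reads. Digestive proteases and peptidases took 0.339%, 0.538% and 0.512% of the reads in animals 1, 2 and 3, and carbohydrases and lipases took 0.0860%, 0.199% and 0.193%. The highest member in all 3 animals together was dipeptidyl peptidase 1 (BSL78_15640), a lysosomal cysteine protease, with 533, 284 and 396 FPKM. Alpha-amylase, the starch-cleaving enzyme, had reads on only 4 of its 8 models, which summed to 2.86, 6.69 and 0.0912 FPKM. The 2 chymotrypsin models summed to 5.16, 1.60 and 0.153 FPKM. The 7 trypsin models summed to 6.05, 910 and 4.79 FPKM, and nearly all of the value of animal 2 came from a single model, trypsin-like serine protease BSL78_00549, with 0.494, 909 and 2.00 FPKM. Chitinase summed to 20.4, 27.1 and 28.01 FPKM over 2 models, and sucrase-isomaltase to 33.1, 18.8 and 60.01 FPKM over 4. Lysosomal proteases and cathepsins took 0.664%, 0.404% and 1.06% of the reads, more than the digestive proteases in animals 1 and 3 and less in animal 2, or 1.95%, 0.806% and 1.66% of the reads outside the yolk and ribosomal classes, led by cathepsin L2 (BSL78_16663) at 3001, 783 and 1044 FPKM and legumain (BSL78_14482), a lysosomal asparaginyl protease, at 2578, 709 and 1470 FPKM.

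The label of the tissue was set against markers of the cell types the organ could hold. Of 142 models in the digestive epithelium list, 116 had a read, and the list took 0.181%, 0.371% and 0.347% of the reads in animals 1, 2 and 3. Villin, the actin-bundling protein of the brush border, summed to 417, 853 and 352 FPKM over 2 models. Aminopeptidase N, a brush-border peptidase, summed to 232, 173 and 157 FPKM over 7, which is 0.0491%, 0.0608% and 0.0758% of the reads. Both were thus read in each animal while alpha-amylase and chymotrypsin were near 0. Fatty acid-binding protein, on the same list, was uneven, summing to 813, 22.4 and 3.94 FPKM over 8 models. Muscle markers took 0.318%, 0.431% and 0.390% of the reads, with tropomyosin summing to 327, 330 and 154 FPKM. Coelomocyte markers took 0.383%, 0.513% and 1.54%, so they were highest in animal 3. Of the 31 coelomocyte markers with at least 10 FPKM, 23 had their highest share there. Over all 4204 models with at least 10 FPKM, 526, 1337 and 2341 had their highest share in animals 1, 2 and 3. This list overlaps with the lectin and complement class, so it is not a second observation, and the part of coelomocytes in the values of animal 3 was not tested.

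Neuronal markers took 0.0285%, 0.214% and 0.0947% of the reads, but without acetylcholinesterases, a name carried by 29 models, they took 0.0239%, 0.0301% and 0.0552%. Markers of cilia took 0.0381%, 0.0338% and 0.0689% and those of dividing cells 0.0144%, 0.0457% and 0.0237%. Germ line names took 0.00910%, 0.146% and 0.0725%, which came mostly from vitellogenin: without it the remaining 7 models took 0.000740%, 0.00368% and 0.00334%, and the 2 piwi models summed to 0.389, 0 and 0.523 FPKM. Heat shock and immediate early genes that mark heat and handling took 0.0187%, 0.0494% and 0.130%, highest in animal 3, where heat shock protein 70 (BSL78_02892) had 51.9 FPKM, against 1.85 and 2.63 FPKM in animals 1 and 2. All heat shock proteins and folding factors together took 0.156%, 0.363% and 0.661% of the reads, so these 3 unheated animals differed in them.

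Uptake and metabolism differed between animals gene by gene. Solute carriers and transporters took 0.513%, 0.693% and 1.75% of the reads. Among them aquaporin-8 (BSL78_11612), a water channel, had 200, 499 and 730 FPKM, and the sodium-dependent phosphate transporter 2B (BSL78_05175) had 3.91, 969 and 477 FPKM, so animal 1 nearly lacked it. The amino acid transporter B(0+), which moves neutral and basic amino acids with sodium and chloride, summed to 630, 107 and 1259 FPKM over 6 models and was lowest in animal 2. The methionine and one-carbon cycle took 0.566%, 0.560% and 1.52% of the reads. Of that, 49.4% was on betaine-homocysteine S-methyltransferase (BSL78_07262), which remakes methionine from homocysteine and betaine, at 2635, 1337 and 3153 FPKM. Its neighbour on scaffold MRZV01000199.1 is dimethylglycine dehydrogenase (BSL78_07261), which breaks down the product of that reaction, at 71.5, 96.1 and 195 FPKM.

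Oxidative phosphorylation took 0.737%, 1.63% and 1.14% of the reads, and 51 of its 78 models with at least 10 FPKM had their highest share in animal 2, where 1337 of all 4204 such models did. Of the reads outside the yolk and ribosomal classes it took 2.16%, 3.26% and 1.79%, so animal 2 was highest on both denominators while animals 1 and 3 changed places. ATP synthase models took 0.293%, 0.677% and 0.461%, and cytochrome c oxidase subunits 0.131%, 0.356% and 0.195%. Glycolysis and the citrate cycle took 0.144%, 0.299% and 0.321%, led by glyceraldehyde 3-phosphate dehydrogenase (BSL78_13760) at 323, 427 and 262 FPKM. Antioxidant and glutathione enzymes took 0.114%, 0.173% and 0.213% of all reads, and were the most even class among the reads outside the yolk and ribosomal classes, at 0.335%, 0.346% and 0.334%. The cytoskeleton class took 0.769%, 2.15% and 1.76%, and 47.3% of it was a single actin model (BSL78_24675) with 2704, 7556 and 3454 FPKM. Muscle contractile proteins were steadier as a share of reads, at 0.609%, 0.912% and 0.802%, and myosin heavy chain models took 0.133%, 0.130% and 0.127%. In FPKM the myosin heavy chain models summed to 538, 309 and 179, so they were even in read share only.

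The spread between animals was measured over the 4204 models with a mean of at least 10 FPKM, as the SD of log2(FPKM + 1) across the 3 animals. Its median was 0.75, where counting of reads alone gives 0.17. For 3527 models (83.9%) the SD was more than 2 times that expected from counting. The highest value was more than 2-fold the lowest in 2821 models (67.1%) and more than 10-fold in 601 (14.3%). Without animal 1, 2 or 3 the count over 2-fold was 1907, 1944 or 1778, and for a given model a pair of animals cannot span more than all 3 do. On the authors' scaled values, the 123 models with at least 1000 FPKM, which are measured best, were not the steadiest: their median SD was 1.06 against 0.017 from counting. With FPKM rescaled to a common sum, the median SD over models with at least 10 FPKM was 1.01. The highest models were not measured apart on that scale, so whether they are less steady there is not known. Across these 4204 models, Pearson's r of log2(FPKM + 1) was 0.618 between animals 1 and 2, 0.666 between animals 1 and 3 and 0.609 between animals 2 and 3. These describe agreement over genes of the same libraries, and genes are not independent replicates.

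**Figure D4:**
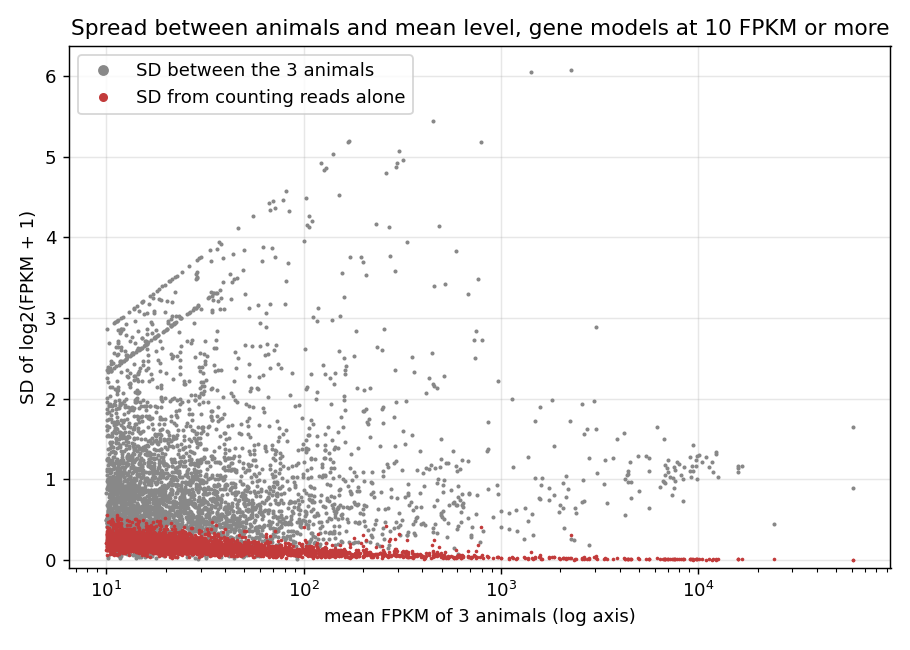
SD of log2(FPKM + 1) against the mean FPKM of the 3 animals (log axis) for the 4204 gene models with at least 10 FPKM; grey points are the SD between animals and red points the SD that counting reads alone would give. The grey points lie above the red ones at most levels, with medians of 0.75 and 0.17, and above 1000 FPKM the grey points sit around 1.06.

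Among models with a name, the 10 with the smallest SD all lay below the spread that counting alone gives, so their steadiness is not resolved at this depth. Proteasome maturation protein (BSL78_01289), a factor that helps assemble the proteasome, had 92.1, 91.8 and 92.9 FPKM in animals 1, 2 and 3. The 54 kDa signal recognition particle protein (BSL78_04560), which brings secreted proteins to the endoplasmic reticulum, had 29.0, 28.7 and 29.2 FPKM. Others among them were transformer-2, a UPF0556 protein, metalloproteinase inhibitor 1-like, myotubularin-related protein 2, ataxin-7-like protein 3, N-alpha-acetyltransferase 35 and epoxide hydrolase 1. At higher levels, the proteolipid subunit of the V-type proton ATPase (BSL78_15756), which acidifies vesicles, had 630, 569 and 623 FPKM with an SD of 0.08. Its read share was 0.0219%, 0.0325% and 0.0536%, so it and the models above are steady on the authors' scaled values and not as a share of reads.

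The 10 named models with the largest SD had a high level in some animals and almost none in another. Besides the ribosomal P2 and S25 models described above, regeneration associated protein (BSL78_13719) had 4212, 29.9 and 0 FPKM. Proprotein convertase subtilisin/kexin type 9 (BSL78_02008) had 0, 1357 and 4.35 FPKM, and a serine proteinase with the same domain label (BSL78_18880) had 1.59, 781 and 1.34 FPKM. Trypsin-like BSL78_00549 and nose resistant to fluoxetine protein 6 (BSL78_07742, at 0, 511 and 0 FPKM) were likewise high in animal 2. The neighbouring models of fatty acid-binding protein 2 (BSL78_13793 and BSL78_13794), a carrier of fatty acids in the cytosol, had 390 and 365 FPKM in animal 1 and at most 0.327 FPKM in the others. Barrier to autointegration factor (BSL78_07950), a chromatin protein, had 0, 0 and 243 FPKM.

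Such models were counted with a threshold chosen after the values were seen: at least 100 reads in an animal and a share at least 50 times that in each of the other 2. There were 14 in animal 1, 67 in animal 2 and 33 in animal 3, out of 1245, 1814 and 3288 models with at least 100 reads in those animals. They took 0.305%, 1.34% and 0.475% of their own library. Of these, 7 of the 14, 32 of the 67 and 14 of the 33 had no read at all in the other 2 animals. In animal 2, 8 of the 67 carried the subtilisin domain label Peptidase_S8 and 8 the carboxylesterase label COesterase. In animals 1 and 3, 0 carried either label. The models of animals 1, 2 and 3 lay on 13, 59 and 33 scaffolds. The models below are named from this count.

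**Figure D5:**
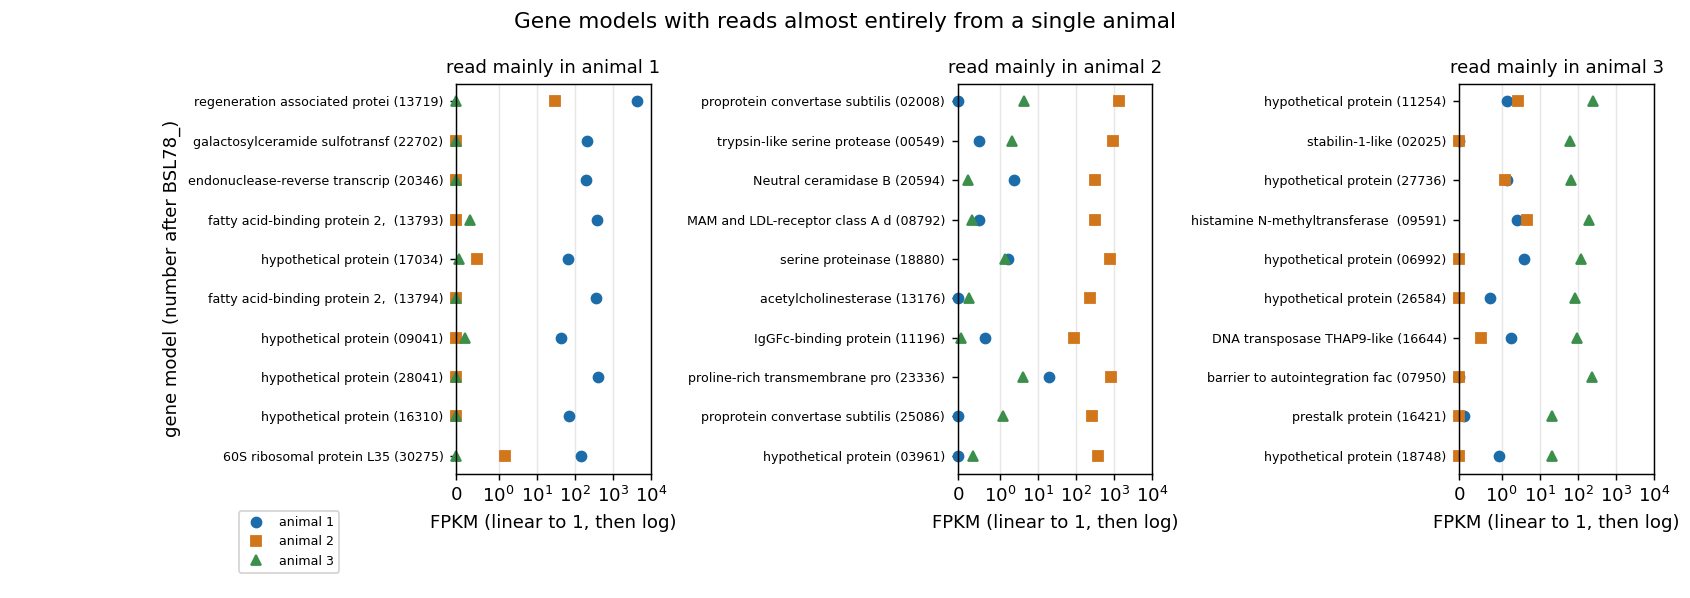
FPKM (linear to 1, then log) of the 10 gene models with the highest read share among those read almost only in animal 1 (left), animal 2 (middle) or animal 3 (right), with one marker per animal and the gene number after BSL78_ in brackets; markers at 0 overlap. In each panel the marker of the named animal stands apart, as for regeneration associated protein at 4212 FPKM in animal 1 and 0 in animal 3.

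Over whole families, the 26 models with the Peptidase_S8 label took 0.0102%, 0.428% and 0.0494% of the reads in animals 1, 2 and 3, and 16 of them had at least 10 reads in animal 2, against 5 and 13 in animals 1 and 3. The 75 COesterase models took 0.0606%, 0.287% and 0.0646%, and 35 of them had at least 10 reads in animal 2, against 10 and 19 in animals 1 and 3. Of all 30221 models, 7981, 9665 and 12830 had at least 10 reads in animals 1, 2 and 3. Neutral ceramidase B (BSL78_20594), an enzyme that splits ceramides, had 2.32, 315 and 0.241 FPKM, and an acetylcholinesterase model (BSL78_13176) had 0, 236 and 0.258 FPKM. Both labels were thus read in all 3 animals, with the highest share in animal 2. That share includes the 8 models of each label counted above for their excess in animal 2. It is therefore not a second observation. Without those 8, the rest of the Peptidase_S8 label had its highest read share in animal 3. The rest of the COesterase label still had its highest share in animal 2. Leaving out models chosen for their excess in animal 2 lowers that animal by design, so neither order is a test. Models read almost only in animal 3 included a hypothetical protein with the label Zona_pellucida (BSL78_11254), at 1.41, 2.75 and 244 FPKM, stabilin-1-like (BSL78_02025), named after a scavenger receptor, at 0, 0 and 64.2 FPKM, and histamine N-methyltransferase A (BSL78_09591), which inactivates histamine, at 2.55, 4.53 and 196 FPKM. The Zona_pellucida label as a whole, 15 models with BSL78_11254 among them, took 0.0477%, 0.276% and 0.911% of the reads. The SNF label of sodium-coupled transporters, 30 models, took 0.0922%, 0.0343% and 0.511%.

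Models chosen here for a high level in animal 1, but outside that count, had lower levels in the others. Ependymin-related protein (BSL78_03597), a secreted protein first named in fish brain, had 2022, 56.7 and 113 FPKM. Short-chain collagen C4 (BSL78_24978), a matrix protein, had 2535, 164 and 191 FPKM. A model with a neurotransmitter-gated ion-channel ligand binding domain (BSL78_25742) had 1892, 58.2 and 253 FPKM. A model named only as a lectin (BSL78_07802) had 1039, 145 and 62.2 FPKM, against the direction of the lectin and complement class. The summed read share of the Lectin_C label was highest in animal 1, but 25 of its 48 models with a read were highest in animal 3. Whether that sum includes BSL78_07802 was not checked, so it is not a second observation.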

How the data were processed

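The deposited table held FPKM for 30221 gene models, made by the authors, each with its position, length and description, per the file headers. The aligner, counter and genome build are not given in the sources used here. Since 94.0% of lengths were multiples of 3, lengths are called coding lengths. FPKM times coding length fell within 0.05 of a read of a whole number, given 1 step size per library, for 100% of values, so whole reads were recovered and shares of reads computed. Per the labels' protocols, RNA came from each animal separately and messenger RNA was purified. A reference gene table matched 0 identifiers and was not used.

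Each model was put in 1 class by words in its description, the first match counting, and names that matched a list by accident were dropped after the values were known. Spread was the SD of log2(FPKM + 1) over models with a mean of at least 10 FPKM, beside the SD expected from Poisson counting. The code was tested on simulated data. Named models are the 30 highest by mean FPKM, those with at least 1% of the reads of any animal, the 3 highest of each class, the 10 most and least variable with a name, and markers; models outside these were named after their values were seen. The members, classes and lists were chosen with earlier results of these data known. Wilson 95% intervals and the floor of 3 reads cover counting error only, since reads without molecular identifiers are not independent molecules. For a class share the interval reached at most 0.057 percentage points to each side. Analyses used Python 3.11.15, pandas 2.3.3, numpy 2.4.6 and scipy 1.17.1.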

Additional observations from a re-analysis of the deposited data

How the results depend on the processing

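No paired analysis was possible because the values come from a single group and from no test. Leaving out each animal in turn gave 25.9% to 34.2% for the 10 most read models and 59.4% to 71.3% for the 100 most read. It gave 33 to 62.5 models holding 50% of the reads, 25.1% to 33.1% for ribosomal proteins and 16.7% to 25.9% for yolk and iron-binding proteins. With 2 animals the median SD of log2(FPKM + 1) was 0.58 to 0.65 and the count over 2-fold was 1778 to 1944. Of the 30 models highest by mean FPKM, 28 to 29 stayed in the first 30 without 1 animal, 28 with medians and 30 with FPKM rescaled to a common sum. Ribosomal proteins held 39.5% of summed FPKM, since their genes are short. At least 10 reads were found on a mean of 10159 models per animal. The median SD was 0.63 with a pseudocount of 5, 0.61 with no filter other than 1 read and 1.01 with FPKM rescaled to a common sum. The count over 2-fold was 12341 among models with a mean of at least 0.5 FPKM and 12994 with no filter, where more models are counted. Mean Pearson's r between animals was 0.54 with a pseudocount of 0.1 and 0.77 over all models with a read, and the mean Spearman's rho was 0.46. The following were added after seeing the data. With models of the same name summed, the median SD was 0.64 and the count over 2-fold 1576. Outside the yolk and ribosomal reads, 16 of the named classes held at least 1%, against 7 of all reads. For changes without a stated reason the cause was not tested.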

Other observations

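Some groups of genes outside the main account were read as follows, each without a test. Mucins and von Willebrand domain proteins took 0.0749%, 0.360% and 0.422% of the reads in animals 1, 2 and 3, and stayed lowest in animal 1 among the reads outside the yolk and ribosomal classes, at 0.220%, 0.718% and 0.661%. Their best-read models carry sushi and von Willebrand type A names, among them BSL78_01506 with 19.9, 340 and 123 FPKM and BSL78_09991 with 14.9, 327 and 83.6 FPKM. Transcription factors took 0.370%, 0.568% and 1.03% of the reads, and the highest was the nuclear receptor ROR-beta (BSL78_09321), with 369, 258 and 377 FPKM. Among models named for apoptosis, 59.0% of the reads were on programmed cell death protein 4-like (BSL78_25187), a regulator of translation, with 595, 927 and 901 FPKM and 0.0689%, 0.176% and 0.258% of the reads. Caspase models, proteases that carry out cell death, summed to 113, 456 and 173 FPKM over 19 models, and caspase 6 (BSL78_00202) had 0, 288 and 31.8 FPKM. The NACHT label of NLR-type receptors was on 208 models, of which 62, 85 and 103 had at least 10 reads in animals 1, 2 and 3. Of all 30221 models, 7981, 9665 and 12830 did, which rise in the same order.

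Mobile elements were little read: 433 of their 632 models had no read in any of the 3 animals, against 7564 of all 30221 models. The class took 0.0447%, 0.0811% and 0.0864% of the reads. The highest was a retrovirus-related Pol polyprotein (BSL78_12568), with 66.7, 94.7 and 55.1 FPKM. Chosen for their contrast, an endonuclease-reverse transcriptase model (BSL78_20346) had 201, 0 and 0 FPKM, and a DNA transposase THAP9-like model (BSL78_16644) had 1.76, 0.502 and 95.7 FPKM. Extracellular matrix and its proteases took 0.749%, 0.722% and 1.21% of the reads, or 2.20%, 1.44% and 1.90% of those outside the yolk and ribosomal classes, and hemicentin-1 (BSL78_01473), a matrix protein of basement membranes, had 932, 743 and 1315 FPKM.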
